A study of Rattus norvegicus with 32 samples.

Results

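Cyp2e1 and 7 other genes of xenobiotic oxidation and hydrolysis were followed in the left ventricle of septic rats. The 8 genes were Cyp2e1, Cyp4b1, Cyp1a1, Cyp1b1, Aox3, Akr1c3, Ephx1 and Ephx2, found as every probe that was not a control and carried one of these symbols, which gave 8 of the 34912 gene names (accessions of unnamed genes included) and 11 of the 45598 probes of the array (3 for Cyp1b1, 2 for Cyp4b1 and 1 for each of the others). Cyp2e1 had been chosen by its measured values, as the gene with the largest rise between the CLP group and the CLP plus landiolol group in the 16 male arrays, so its values in that comparison are given as a description, with no test. The other 7 genes, and the gene lists used below, were drawn up with earlier results of these data known. Counts over them are therefore a description. The rats were Wistar rats of both sexes, and the left ventricle was taken 20 h after surgery. In each sex, 5 rats had sham surgery, 5 had CLP (cecal ligation and puncture, a model of abdominal sepsis) and 6 had CLP plus landiolol, a β1-selective adrenergic antagonist of short action infused once sepsis had started. Rats without landiolol received saline, every rat received the pain reliever buprenorphine and none received antibiotics, so these were features that all groups shared. The hearts had been perfused outside the body to measure function before the RNA was extracted, and each RNA was labelled with 1 dye and hybridised to an array of its own.

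Cytochrome P450 enzymes are haem proteins that insert oxygen into drugs, toxins, fatty acids and steroids. CYP2E1 is best known from liver, where it oxidises ethanol, acetone and other small molecules and rises with fasting, diabetes and ketone bodies. CYP1A1 and CYP1B1 are induced through the aryl hydrocarbon receptor (AHR), and CYP4B1 is a fatty acid hydroxylase best known from lung. Aldehyde oxidases, aldo-keto reductases and epoxide hydrolases act on the carbonyls and epoxides that such oxidation can produce, and in the heart soluble epoxide hydrolase (EPHX2) is known for breaking down epoxides of arachidonic acid.

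All 4 slides held 8 arrays, 2 slides were male and 2 female, and every group was present on both slides of its sex, so sex and slide cannot be told apart. The scanner headers name another protocol for the 8 arrays of 1 female slide than for all other arrays, so slide and protocol cannot be told apart in females. Between 22946 and 30548 probes per male array and between 24103 and 26450 per female array were well above background, and 25866 probes in males and 25395 in females were kept for the tests. The arrays of a slide lie in 2 rows. In females all 5 sham arrays lay in row 1 and all 6 CLP plus landiolol arrays in row 2, while 3 of the CLP arrays were in row 1 and 2 were in row 2, so that row and treatment cannot be told apart for the comparison of CLP plus landiolol with sham in females. In males each group was present in both rows. All levels below are log2 intensities after quantile normalisation within a sex, and they are compared between groups for the same probe and not between probes. In whole tissue, fewer cells of a type and less RNA per cell cannot be told apart.

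The sequence that measured Cyp2e1 was a 60-base probe at chr1:200927736-200927795 on the plus strand of rat build rn4, starting at base 1207 of the transcript. It is shown, 5′ to 3′, because every Cyp2e1 level rests on it, together with the second of the Cyp4b1 probes, at chr5:135922246-135922305 on the minus strand and starting at base 1011 of its transcript, which differed from the first in some calls. The probe with the higher level for Cyp4b1 lay at chr5:135917465-135917524.
Cyp2e1 probe: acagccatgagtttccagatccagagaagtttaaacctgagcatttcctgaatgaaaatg
Cyp4b1 second probe: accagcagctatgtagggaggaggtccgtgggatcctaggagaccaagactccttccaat

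Promoters of 6 of the 8 members were matched by symbol in RefSeq (assembly GRCr8), with 7 start sites since Ephx1 has 2. The 250 bases before the annotated start were searched on both strands for 4 motifs, and the promoters of the 3 P450 genes among them are printed because Cyp2e1 and Cyp4b1 are the 2 members that passed a test against sham and Cyp1b1 is an AHR-induced member. Capitals mark the motifs. The Cyp2e1 promoter, at chr1:205269717-205269966 on the plus strand, holds a TATA box (TATAAA) 49 bases before the start and a nuclear receptor half-site (AGGTCA) 200 bases before it. The Cyp4b1 promoter, at chr5:134393117-134393366 on the minus strand, holds an antioxidant response element (TGACNNNGC) 22 bases before the start. The Cyp1b1 promoter, at chr6:21094315-21094564 on the plus strand, holds the core of the xenobiotic response element (GCGTG), the site at which AHR binds, 81 bases before the start on the minus strand and 20 bases before it on the plus strand.
Cyp2e1 promoter: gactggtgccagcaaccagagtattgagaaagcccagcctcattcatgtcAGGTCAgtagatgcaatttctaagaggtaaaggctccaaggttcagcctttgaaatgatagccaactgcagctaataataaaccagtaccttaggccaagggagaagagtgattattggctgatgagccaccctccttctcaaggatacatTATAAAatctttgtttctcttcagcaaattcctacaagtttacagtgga
Cyp4b1 promoter: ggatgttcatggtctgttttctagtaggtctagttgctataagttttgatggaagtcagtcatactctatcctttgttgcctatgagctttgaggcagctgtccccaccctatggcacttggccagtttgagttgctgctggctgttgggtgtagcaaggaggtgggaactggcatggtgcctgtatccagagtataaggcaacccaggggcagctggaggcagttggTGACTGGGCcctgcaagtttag
Cyp1b1 promoter: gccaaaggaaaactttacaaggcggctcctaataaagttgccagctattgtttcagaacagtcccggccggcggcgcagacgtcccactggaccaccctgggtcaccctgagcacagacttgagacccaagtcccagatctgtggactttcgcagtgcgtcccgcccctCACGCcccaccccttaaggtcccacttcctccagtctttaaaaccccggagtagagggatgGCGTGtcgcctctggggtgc

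Of 33465 rat promoters of this length, 12.9% hold the TATA box, 14.1% the half-site, 10.1% the antioxidant response element and 25.9% the xenobiotic response element core, and these motifs do not overlap one another as written. The TATA box was also found 150 bases before the Akr1c3 start, and the second Ephx1 start site had an antioxidant response element at 57 bases and half-sites at 196 and 131 bases. No match of the 4 motifs was found in the windows of Aox3 and of the first Ephx1 start. A match of letters is a description and not a binding site.

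Cyp2e1 was low in the male sham and CLP groups and high in the male CLP plus landiolol group. Its log2 level was 6.78, 7.24, 8.04, 8.29 and 8.62 in the 5 sham males, with a mean of 7.79 ± 0.76 (SD, n = 5). It was 6.88, 8.39, 8.69, 8.93 and 9.10 in the 5 CLP males, with a mean of 8.40 ± 0.89 (SD, n = 5). In the 6 males with CLP plus landiolol it ranged from 10.67 to 11.66, with a median of 11.36 and a mean of 11.29 ± 0.37 (SD, n = 6). The lowest array with landiolol therefore lay above the highest array of both other groups, whereas the sham and CLP arrays overlapped. The difference between CLP plus landiolol and CLP, which chose the gene, was 2.90 on the log2 scale, or 7.45-fold, and it ranked 1 among the 25866 kept probes. The next probe differed by 2.36, and the next gene with a symbol that passed the FDR, Colq, by 2.19. In the same comparison Akr1c3 ranked 49 with 1.49, Aox3 57 with 1.44 and Ephx1 1805 with 0.51, while Cyp4b1, Cyp1b1 and Ephx2 ranked lower. Within the slides the difference was 2.55 and 3.50, and within the rows it was 3.64 and 2.32.

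In females the group means of Cyp2e1 had the same order, with CLP plus landiolol nearer to both other groups than in males and CLP farther from sham. The log2 level was 8.18, 8.27, 8.53, 9.09 and 9.82 in sham females (mean 8.78 ± 0.68, SD, n = 5). In CLP females it was 8.93, 9.12 and 9.79 on the arrays of row 1 and 10.46 and 10.52 on those of row 2 (mean 9.77 ± 0.74, SD, n = 5). The 6 females with CLP plus landiolol ranged from 9.73 to 11.36, with a median of 10.63 and a mean of 10.63 ± 0.53 (SD, n = 6). All 3 female groups overlapped with their neighbours, and the 2 CLP arrays that lay in the row of the landiolol arrays were also the 2 highest of their group. The female arrays had no part in the choice of Cyp2e1.

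**Figure D1:**
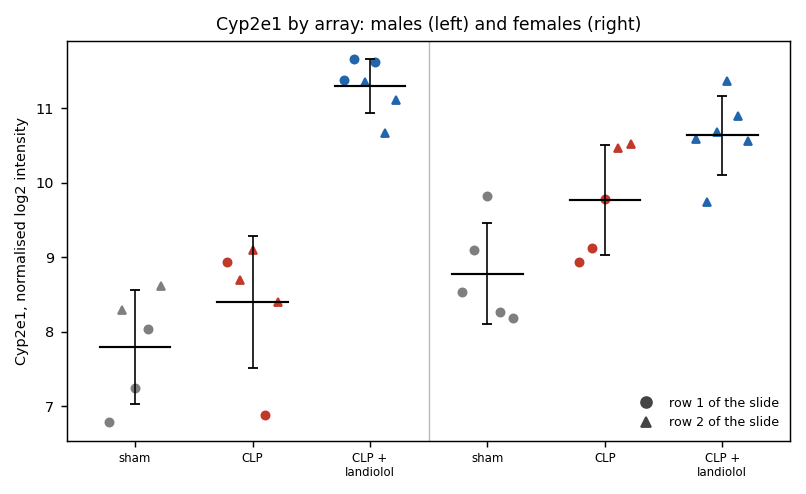
Log2 level of Cyp2e1 (vertical axis, quantile-normalised intensity) on each of the 32 arrays by group and sex, with the mean and SD of each group, circles for row 1 and triangles for row 2 of the slide. In males the 6 arrays with CLP plus landiolol lie between 10.67 and 11.66, above all sham and CLP arrays, whereas in females they lie between 9.73 and 11.36 and overlap with both other groups.

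Each comparison was tested with limma across all kept probes of a sex, at an FDR of 1% against sham and of 5% between the septic groups. Cyp2e1 did not pass for CLP vs sham, with a difference of 0.60 (SE 0.40, 95% interval -0.25 to 1.46, adjusted p = 0.366) in males and of 0.99 (SE 0.38, interval 0.18 to 1.79, adjusted p = 0.122) in females. The male CLP arrays were the lower group of the comparison that chose the gene. That choice favours low CLP levels, so the male value is not an independent test and nothing is read from its p. Within the male slides the CLP minus sham difference was 1.37 and -0.33, so its direction was not shared by the slides. Cyp2e1 was up-regulated with CLP plus landiolol against sham in males, by 3.50 (SE 0.39, interval 2.68 to 4.32) or 11.3-fold, with an adjusted p of 4.874e-05. This male comparison holds the same 6 landiolol arrays that chose the gene, so it is not an independent test of it and nothing is read from its p. Within the slides the difference was 3.92 and 3.16.

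In females Cyp2e1 also rose for CLP plus landiolol vs sham, by 1.86 (SE 0.36, interval 1.08 to 2.63, adjusted p = 0.003498), or 3.62-fold, with 1.87 within each slide. When the slide row was added to the fit, the difference was 0.64 with an adjusted p of 0.782, the highest over the 27 alternatives, whose lowest was 0.00185. It was also no longer called without replicate 1 (1.79), replicate 4 (1.72) or replicate 5 (1.71) of the female sham group. Between the septic females the difference of 0.87 (interval 0.10 to 1.64, adjusted p = 0.463) did not pass, and within row 2 it was 0.14, between 6 landiolol and 2 CLP arrays. Within row 1 the 3 CLP arrays lay 0.50 above the 5 sham arrays. The part of the row in the female differences was not tested in any other way.

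The test of the difference between the sexes did not pass for Cyp2e1. For CLP vs sham the male change minus the female change was -0.40 (interval -1.58 to 0.78, adjusted p = 0.9999). The same difference for CLP plus landiolol vs sham was 1.58 (SE 0.55, interval 0.46 to 2.71, unadjusted p = 0.007524 and adjusted p = 0.605 with limma). At an FDR of 5%, 0 of the 24769 probes kept in both sexes passed in either of these comparisons, against 867 and 1566 at an unadjusted p under 0.05. Male CLP arrays enter the first of these differences and male landiolol arrays the second, and both groups chose Cyp2e1. Neither difference is an independent test of the gene, and nothing is read from the intervals or p. For CLP plus landiolol vs CLP the male change exceeded the female one by 1.98, which is given with no test.

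Cyp4b1 was raised after CLP in both sexes, with and without landiolol. In males its log2 level was 12.03, 12.34, 12.88, 13.11 and 13.15 in sham rats and 13.54, 13.59, 13.83, 13.85 and 13.90 after CLP. With CLP plus landiolol the males ranged from 13.72 to 14.71 with a median of 13.99. Both septic male groups thus lay wholly above the sham group and overlapped with each other. Among females the sham levels were 12.08, 12.42, 12.86, 12.94 and 12.98, and the CLP levels were 13.34, 13.40, 13.76, 13.82 and 14.27. The females with CLP plus landiolol ranged from 13.78 to 14.60 with a median of 14.17. As in males, no septic array reached down to the sham arrays.

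For CLP vs sham, Cyp4b1 rose by 1.04 (SE 0.23, adjusted p = 0.005213) in males and by 1.06 (SE 0.22, adjusted p = 0.006665) in females, a rise of 2.06-fold and 2.09-fold. The difference between these changes was -0.0005 with an interval from -0.65 to 0.65 for the higher probe and 0.45 (interval -0.22 to 1.11) for the second one. It rose over sham by 1.42 (SE 0.22, adjusted p = 0.0006951) in males and by 1.55 (SE 0.21, adjusted p = 0.0003012) in females with CLP plus landiolol, or 2.68-fold and 2.92-fold. The second Cyp4b1 probe gave 1.12 and 0.65 for CLP vs sham, of which the male value passed and the female value did not (adjusted p = 0.0618). Under CLP plus landiolol it gave 1.02 in males (adjusted p = 0.01246, not passed) and 1.04 in females (adjusted p = 0.002788). Between the septic groups Cyp4b1 differed by 0.38 in males, a description, where the second probe gave -0.10, and by 0.48 in females (adjusted p = 0.491).

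Calls of Cyp4b1 for CLP vs sham were the less stable ones. The male call was lost without sham replicate 2 (0.87), sham replicate 4 (0.95), CLP replicate 3 (1.0) or CLP replicate 4 (1.01), while the adjusted p over the 27 alternatives ran from 0.00341 to 0.0157. In females it was lost without sham replicate 1 (1.0), 2 (0.92) or 5 (1.11) and without CLP replicate 1 (1.04), 4 (1.05) or 5 (0.93). In both sexes the call was also lost with no filter on dim probes and in a fit of these 2 groups alone, which leave the difference itself as it is. When the slide row was added to the fit, the female difference was 0.87 for CLP (adjusted p = 0.0569, the highest of a range from 0.00388) and 1.05 for CLP plus landiolol (adjusted p = 0.317, the highest of a range from 0.000129), and neither passed. Within row 1 the 3 CLP females lay 0.87 above the 5 sham females.

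**Figure D2:**
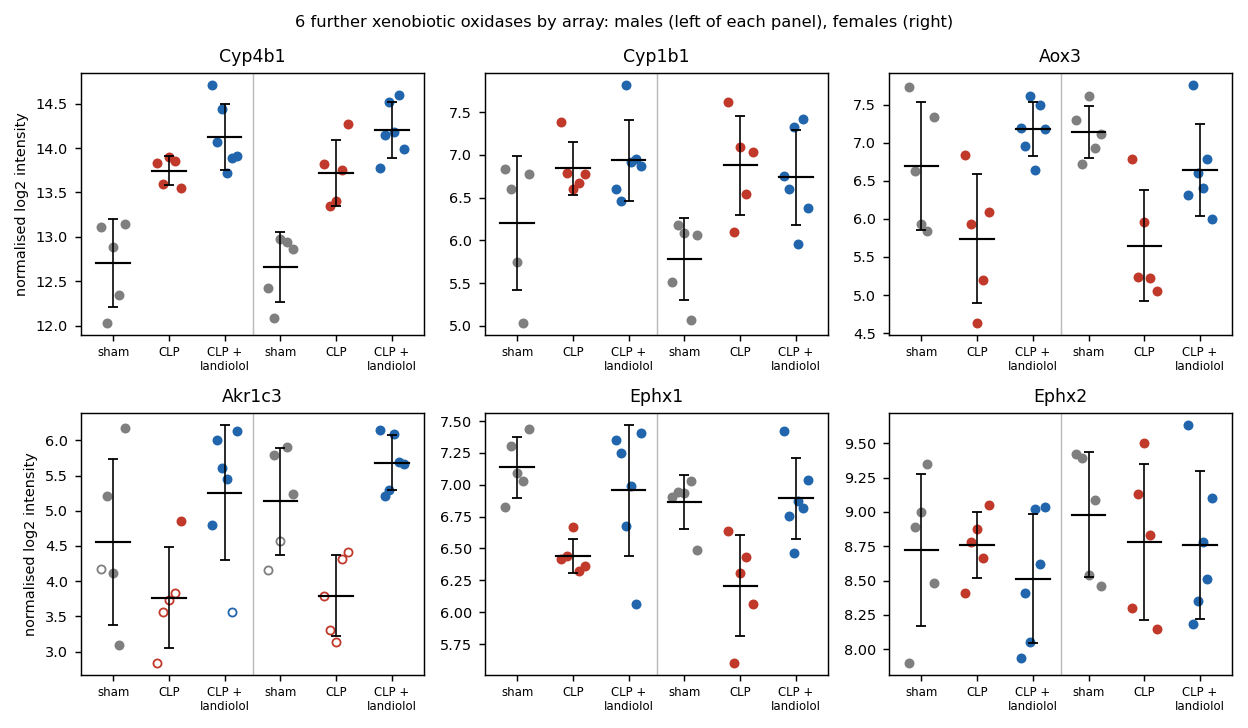
Log2 level (vertical axis, quantile-normalised intensity) of Cyp4b1, Cyp1b1, Aox3, Akr1c3, Ephx1 and Ephx2 on each array, 1 panel per gene with males on the left and females on the right, the mean and SD of each group, and open circles for arrays not well above background. Cyp4b1 lies higher in all septic groups than in sham, and Aox3, Akr1c3 and Ephx1 have their lowest group mean after CLP in both sexes.

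The AHR-induced members gave no call. Cyp1a1, the classical AHR target, was well above background on 0 of 32 arrays, and was not kept for the tests. Cyp1b1, which oxidises oestrogens and aromatic hydrocarbons, was well above background on every array. Its male levels ranged from 5.04 to 6.84 in sham, from 6.60 to 7.38 after CLP and from 6.46 to 7.81 with CLP plus landiolol. The female ranges were 5.07 to 6.18, 6.09 to 7.62 and 5.96 to 7.41 in the same order. On this probe, the one of highest level, all these groups overlapped. Differences from sham were 0.64 (adjusted p = 0.211) and 0.74 (adjusted p = 0.158) in males and 1.09 (adjusted p = 0.0430) and 0.96 (adjusted p = 0.0519) in females for CLP and CLP plus landiolol. The other Cyp1b1 probes gave 0.10 to 0.81 for these differences, and none of the 3 probes passed. On 1 of them the CLP females (5.66 to 6.24) lay wholly above the sham females (5.17 to 5.55), where 8.32% of all probes did not overlap. That difference was 0.59 (adjusted p = 0.0143 with limma), and CLP plus landiolol differed from CLP by -0.49 (adjusted p = 0.189).

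Aox3 and Akr1c3, which act on carbonyl compounds, had their lowest group mean after CLP in both sexes. Neither gene passed for CLP vs sham in either sex with the main processing. Aox3, an aldehyde oxidase, had levels of 5.84, 5.93, 6.62, 7.34 and 7.73 in sham males and of 4.64, 5.20, 5.93, 6.10 and 6.84 in CLP males, and ranged from 6.64 to 7.61 with CLP plus landiolol. In females the levels were 6.72, 6.93, 7.12, 7.30 and 7.61 in sham and 5.05, 5.23, 5.23, 5.96 and 6.78 after CLP, and ranged from 6.0 to 7.76 with CLP plus landiolol. Only the highest CLP female reached the sham range. The CLP minus sham difference was -0.95 (SE 0.41, adjusted p = 0.134) in males and -1.49 (SE 0.34, adjusted p = 0.01248) in females, and the latter missed the FDR of 1% but passed with SAM and without CLP replicate 1 (-1.77) or landiolol replicate 2 (-1.49) of the females. CLP plus landiolol differed from CLP by 1.44 in males, a description, and by 0.99 in females (adjusted p = 0.308).

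Akr1c3, an aldo-keto reductase that acts on steroid ketones, was a dim probe near the limit of detection. It was well above background on 4 of 5 sham, 1 of 5 CLP and 5 of 6 CLP plus landiolol arrays in males, and on 3 of 5, 0 of 5 and 6 of 6 in females. Male levels ranged from 3.10 to 6.18 in sham, from 2.84 to 4.85 after CLP and from 3.56 to 6.13 with CLP plus landiolol, so all male groups overlapped. Female levels were 4.16, 4.57, 5.23, 5.79 and 5.90 in sham, 3.13, 3.31, 3.79, 4.32 and 4.41 after CLP, and 5.21, 5.30, 5.67, 5.69, 6.09 and 6.14 with CLP plus landiolol. The landiolol females lay above every CLP female. In females the probe met the filter only through the landiolol group, in which it is high, so a difference between these groups was built into its selection and the test between them supports nothing. The difference, which was known when the genes were listed, was at least 3.45-fold with the main processing, since no CLP array was well above background, with means of 5.68 and 3.79 and an adjusted p of 0.04986. It depended on how dim signals were handled, and was 0.63 on the log2 scale with normexp background correction and 0.40 in the table of the authors, neither of which passed. With the filter over all arrays Akr1c3 was not tested. The difference passed in 6 of 26 alternatives that gave an adjusted p, which ran from 0.0184 to 0.535, and with SAM. It was lost without sham replicate 2, 3 or 5, CLP replicate 1, 2, 3 or 4, or CLP plus landiolol replicate 1, 2, 4, 5 or 6, with values from 1.72 to 2.02. In row 2 alone, with 2 CLP arrays, it was 1.32. In females CLP lay at least 2.35-fold below sham (adjusted p = 0.0219), which missed the FDR of 1%. Over the alternatives this adjusted p ran from 0.00909 to 0.497, the highest with the table of the authors. In males the CLP minus sham difference was -0.79 (SE 0.56, adjusted p = 0.404 with limma), and -1.31 and -0.12 within the slides.

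Neither epoxide hydrolase passed in a tested comparison. Ephx1, the microsomal enzyme, had levels of 6.83, 7.03, 7.09, 7.31 and 7.44 in sham males and of 6.32, 6.37, 6.42, 6.44 and 6.67 in CLP males, and ranged from 6.07 to 7.41 with CLP plus landiolol. The male sham and CLP arrays did not overlap, but the difference of -0.70 (SE 0.22, adjusted p = 0.0384) missed the FDR of 1%. It passed with scaling to the 75th percentile, with SAM, in a fit of these groups alone and without landiolol replicate 5. In females the difference was -0.65 (SE 0.20, adjusted p = 0.0534), and CLP plus landiolol lay 0.69 above CLP (adjusted p = 0.205). CLP plus landiolol differed from sham by -0.18 in males and by 0.03 in females, with adjusted p of 0.63 and 0.942. Ephx2, the soluble enzyme, had group means between 8.51 and 8.98, and its differences lay between -0.24 and 0.03 over all 6 comparisons, none of which passed in the 5 that were tested.

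Counted over the 7 members that were kept, 1 passed for CLP vs sham in males (Cyp4b1, higher), where 3.88% of all kept probes passed as higher and 7.81% in either direction, and 2 did not overlap (Cyp4b1 higher, Ephx1 lower), where 12.3% of all probes did not. With CLP plus landiolol against sham in males, Cyp4b1 passed and did not overlap, against 2.4% of all probes that passed as higher, 4.15% in either direction and 7.79% not overlapping. Cyp2e1 did so too, but these landiolol arrays chose it, so nothing is read from its call. For CLP vs sham in females 1 passed and did not overlap, Cyp4b1, against 1.82% as higher, 3.63% in either direction and 8.32% not overlapping. For CLP plus landiolol vs sham in females Cyp2e1 and Cyp4b1 passed, against 3% as higher and 5.25% in either direction, and Cyp4b1 did not overlap, against 9.74%. Between the septic females the 1 call was that of Akr1c3, where 0.0512% of all probes passed as higher, 0.0945% in either direction and 1.15% did not overlap, and nothing is read from it, since its high group kept it in the test. Between the septic males, where the choice was made, Cyp2e1 did not overlap, against 2.27% of all probes, while 0.804% passed as higher and 1.56% in either direction, and nothing is read from it. With 7 genes each of these counts rests on 1 or 2 members, and the comparisons with sham share the sham arrays. The genes were listed with earlier results of these data known, so the counts beside the shares are a description.

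**Figure D3:**
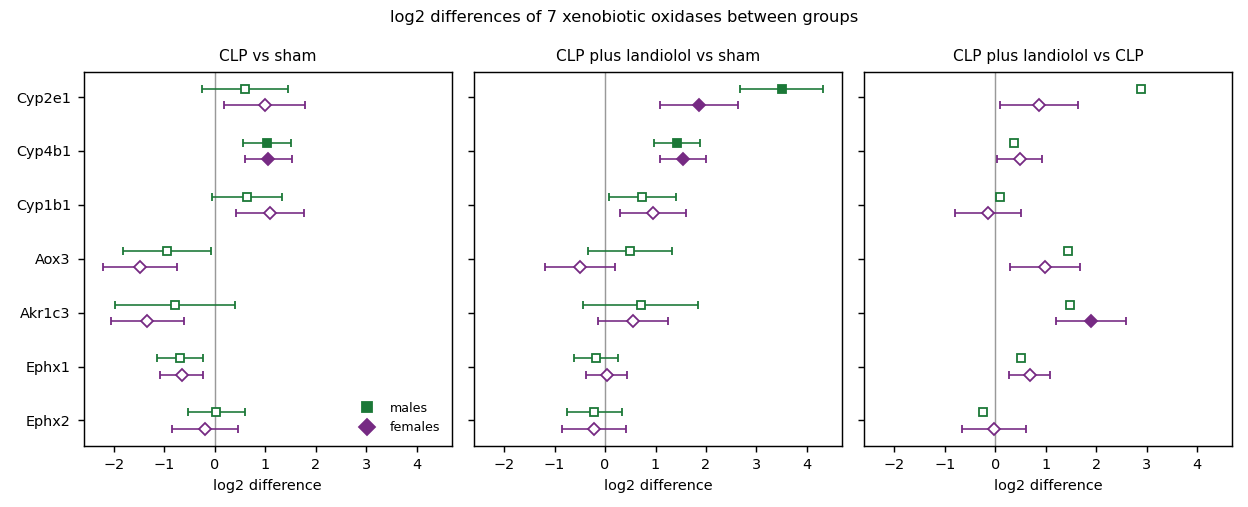
Log2 difference (horizontal axis) with its 95% interval for each kept gene in each comparison, squares for males and diamonds for females, filled where the FDR was passed. The male CLP plus landiolol vs CLP differences are a description, drawn with no interval, and the largest value drawn is the 3.50 of Cyp2e1 for CLP plus landiolol vs sham in males.

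Other P450 genes were mostly not measured in this tissue. Of 56 further P450 genes of drug and fatty acid metabolism on the array, 18 were kept in each sex, and 0 of them rose in any comparison by limma. Over all kept probes only 0.0512% to 3.88% passed as higher, so a count of 0 of 18 says little about these genes. At an unadjusted p under 0.05, 1 to 6 per comparison were higher, where 9.34% to 28.8% of all kept probes reached it in either direction. The count of 6 was between the septic males, where 0 were lower and the share over all kept probes was 14.8%. Cyp2j4 fell by 1.27 (adjusted p = 0.003956) after CLP in males and Cyp2j3 fell by 1.36 (adjusted p = 0.001734) after CLP in females, both epoxygenases of arachidonic acid. In the other sex the values were -0.68 for Cyp2j4 (adjusted p = 0.286) and -1.1 for Cyp2j3 (adjusted p = 0.0101). The median difference of the 18 genes for CLP plus landiolol vs sham was 0.20 in males and 0.14 in females, beside medians of -0.0023 and 0.0006 over all probes. For CLP vs sham it was -0.0013 and 0.0165, beside 0.0091 and -0.015 over all probes. For this list and all lists and markers below, row and treatment cannot be told apart in females for CLP plus landiolol vs sham. With the row in the fit, 20 probes in place of 1332 passed there, and 337 in place of 923 for CLP vs sham in females. The list and marker values are given without the row.

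Among 19 genes that serve P450 enzymes with electrons and haem, 2 rose and 2 fell after CLP in males, where 7.81% of all kept probes passed in either direction, and 2 rose and 1 fell in females, where 3.63% did. With CLP plus landiolol 1 fell in males, and 2 rose and 1 fell in females, against 4.15% and 5.25% of all probes. For CLP vs sham, Hmox1, which breaks down haem, rose by 2.91 (adjusted p = 1.094e-05) in males and by 3.16 (adjusted p = 0.0003917) in females. In the same comparison Alas1, which starts haem synthesis, fell by 1.6 (adjusted p = 0.005728) in males and by 1.85 (adjusted p = 0.001507) in females. Alad, the next enzyme, fell by 0.59 after CLP in males (adjusted p = 0.004662). Pgrmc2, a haem chaperone, rose after CLP by 0.46 in males and by 0.57 in females. With CLP plus landiolol against sham, Alas1 fell by 1.6 in males (adjusted p = 0.006925) and by 1.76 in females (adjusted p = 0.001255), and in females Hmox1 rose by 1.87 and Pgrmc2 by 0.55. Hmox1 had means of 11.05 ± 0.34 in sham, 13.96 ± 0.55 in CLP and 12.21 ± 0.49 in CLP plus landiolol males (SD), a difference between the septic male groups of -1.75. The median difference of the list was -0.14 and -0.077 in males and -0.013 and -0.012 in females for CLP and CLP plus landiolol vs sham.

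Of 44 other genes of oxidation, reduction and hydrolysis in males, 3 rose and 1 fell after CLP, against 7.81% of all kept probes that passed in either direction, and 5 rose and 1 fell with CLP plus landiolol, against 4.15%. In females 2 of 42 rose after CLP, against 3.63%, and 3 with CLP plus landiolol, against 5.25%. Of the 11 carboxylesterases in the list 4 were kept in each sex and 2 passed, Ces1d and Ces1c, in all 4 comparisons with sham. Ces1d rose by 1.40 and 1.58 in males and by 1.54 and 1.35 in females for CLP and CLP plus landiolol (adjusted p from 0.0001525 to 0.0005916), and Ces1c rose by 1.47, 1.33, 1.32 and 1.26 (adjusted p from 6.278e-05 to 0.001745). In males Xdh, xanthine dehydrogenase, rose by 0.84 and 1.08, and Aldh1a3, a retinal dehydrogenase, fell by 2.71 (adjusted p = 0.0001053) and 1.93 (adjusted p = 0.001757), with 3 of 5 CLP and 5 of 6 CLP plus landiolol arrays well above background. Fmo2, a flavin monooxygenase, rose by 2.08 (adjusted p = 0.005444) with CLP plus landiolol in males. Aldh1a1, another retinal dehydrogenase, rose with CLP plus landiolol by 0.71 in females (adjusted p = 0.008433) and by 1.06 in males (adjusted p = 0.003385). Between the septic males Aldh1a1 differed by 1.03, and Aldh3a1, an aldehyde dehydrogenase, by 0.45 on the probe used for the lists and by 1.91 on another probe, so the probes of Aldh3a1 gave different sizes. The median of this list was -0.11 and 0.084 in males and -0.14 and 0.053 in females for CLP and CLP plus landiolol vs sham.

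Of 30 conjugating enzymes kept in each sex, 3 rose and 1 fell after CLP in males and 2 rose and 1 fell in females, where 7.81% and 3.63% of all kept probes passed in either direction. When landiolol was given with CLP, 4 rose in males and 5 in females, against 4.15% and 5.25% of all probes. In females this comparison cannot be told apart from the row of the slide. Mgst1, a microsomal glutathione transferase, rose by 2.12 (adjusted p = 0.005689) after CLP in males, where its relative Mgst2 rose by 1.97 (adjusted p = 0.0001026), and Mgst2 rose in females by 1.28 after CLP and by 1.47 with CLP plus landiolol. Hpgds, a prostaglandin D synthase, rose in females by 1.38 and 1.61 (adjusted p = 0.009456 and 0.002054). With CLP plus landiolol Sult1a1, a phenol sulfotransferase, rose by 1.51 in males and 1.195 in females, Gstt2 by 0.62 and 0.84, and Gsta1 by 1.17 in males. Ugt1a6, a glucuronosyltransferase whose transcript shares its last exons with other Ugt1a transcripts, rose by 0.68 after CLP in males and by 0.74 and 0.68 with CLP plus landiolol in males and females, and it was also the 1 of 5 AHR target genes that passed in those 3 comparisons. Sult5a1 fell by 1.1 after CLP in males and Gstt3 by 1.12 in females. The median was 0.17 and -0.038 in males and 0.096 and 0.19 in females for CLP and CLP plus landiolol vs sham, and over the 5 AHR targets it was 0.40 and 0.19 in males and 0.60 and -0.045 in females.

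Of 20 drug transporters kept, 2 rose and 1 fell after CLP in males, and 2 fell in females, where 7.81% and 3.63% of all kept probes passed in either direction. With CLP plus landiolol 2 rose and 1 fell in males, and 1 rose and 2 fell in females, against 4.15% and 5.25%. Abcb4, a phospholipid exporter, rose by 1.0 after CLP in males and by 1.51 and 1.90 with CLP plus landiolol in males and females (adjusted p = 0.0002626 and 0.0001852). Slco2a1, a prostaglandin carrier, rose by 1.66 and 1.32 in males. Slc22a3, an organic cation carrier, fell by 1.92 in males and 2.51 in females with CLP plus landiolol, with 4 of 6 arrays of that group well above background in each sex. Slc22a5, the carnitine carrier, fell by 0.65 and 0.90 after CLP in males and females and by 1.15 with CLP plus landiolol in females, and Slco2b1 fell by 0.89 after CLP in females. The median of the transporters lay below 0 in each comparison with sham, at -0.16 for both in males and at -0.26 and -0.35 in females.

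Of 27 transcription regulators of these enzymes kept in males, 2 rose and 3 fell after CLP, against 7.81% of all kept probes in either direction, and 2 rose and 1 fell with CLP plus landiolol, against 4.15%. Of 26 in females 2 fell in each comparison with sham, against 3.63% and 5.25%. Ppara, the nuclear receptor of fatty acid oxidation, fell in all 4 comparisons with sham, by 1.27 and 1.08 in males and by 0.92 and 1.0 in females for CLP and CLP plus landiolol (adjusted p from 0.0002753 to 0.002493). Rxrg, its partner receptor, fell by 1.24 after CLP in males and by 1.46 with CLP plus landiolol in females, and Ppargc1a, a coactivator, fell by 1.54 after CLP in females. Nr1i2, the xenobiotic receptor PXR, and Cebpa, a liver and fat cell factor, rose by 1.2 and 0.83 with CLP plus landiolol in males. After CLP in males Cebpb rose by 0.67 and Nfe2l2, the oxidant-responsive factor NRF2, by 0.53, and Nr0b2, the repressor SHP, fell by 1.01. The median was 0.15 and -0.048 in males and 0.15 and 0.030 in females for CLP and CLP plus landiolol vs sham. Between the septic groups 0 genes of these 7 lists passed with limma in females, where 1 to 9 genes per list had an unadjusted p under 0.05, and in males the calls were Hmox1 and Aldh1a1. Over all kept probes 0.0945% passed in females, 9.34% had an unadjusted p under 0.05 there, and 1.56% passed in males.

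**Figure D4:**
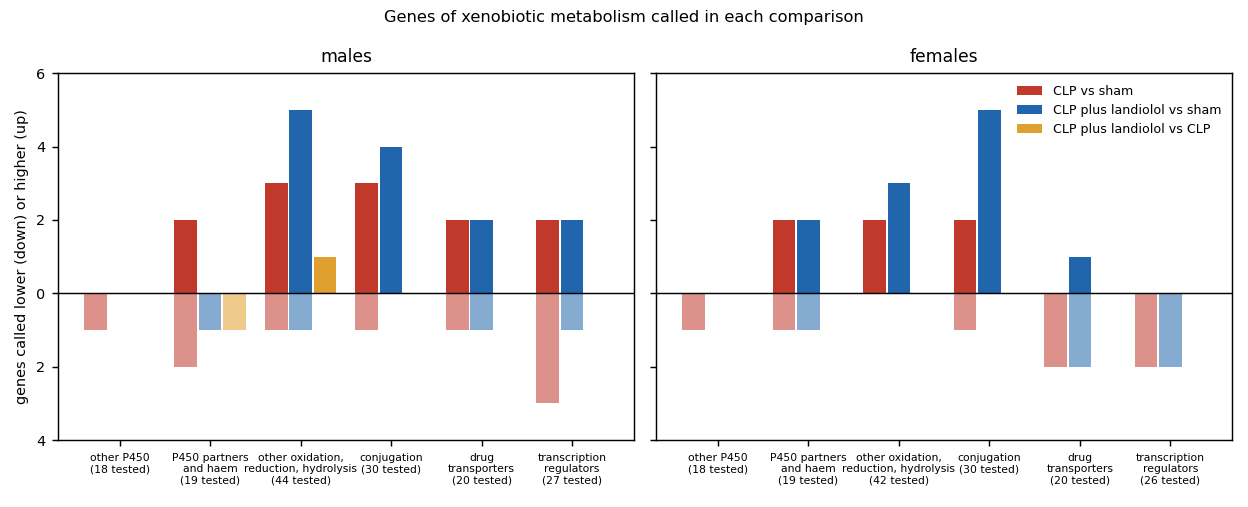
Number of genes of each list (horizontal axis, with the number tested) that passed the FDR (vertical axis), males on the left and females on the right, with higher genes as bars above 0 and lower genes as paler bars below 0, and colours for the 3 comparisons. In the comparisons with sham the P450 list has 0 or 1 called genes of 18, and the lists of partners and haem, conjugation, transporters and regulators have between 1 and 5 over both directions.

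A short list of genes had levels most like those of Cyp2e1 from array to array. Among 12365 genes kept in both sexes, the 5 with the highest lower value of the male and female Pearson correlation were Scn1a, a sodium channel (0.902 over 16 male and 0.779 over 16 female arrays), Pdrg1 (0.83 and 0.77), Rnf39 (0.766 and 0.808), Dusp26, a phosphatase (0.889 and 0.761), and Mxi1, an antagonist of MYC (0.749 and 0.745). The points share their groups, so these values describe the group pattern as much as the single arrays. The genes were picked on these same arrays, so a like order of groups was largely built into the choice. In females the order of sham and CLP plus landiolol also follows the row of the slide. Scn1a had means of 7.70 ± 0.37, 8.44 ± 0.68 and 9.36 ± 0.18 in sham, CLP and CLP plus landiolol males and of 7.84 ± 0.58, 8.67 ± 0.35 and 8.94 ± 0.42 in females (SD, n = 5, 5 and 6). Dusp26 had 10.04 ± 0.28, 10.19 ± 0.33 and 11.28 ± 0.30 in males and 10.31 ± 0.36, 10.96 ± 0.55 and 12.11 ± 0.21 in females. Rnf39 went from 4.59 to 6.41 and 7.49 in males and from 5.34 to 6.48 and 7.62 in females. Of the members, Cyp4b1 was nearest at rank 76 (0.640 and 0.767) and Aox3 farthest at rank 9283 (0.429 and -0.361).

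**Figure D5:**
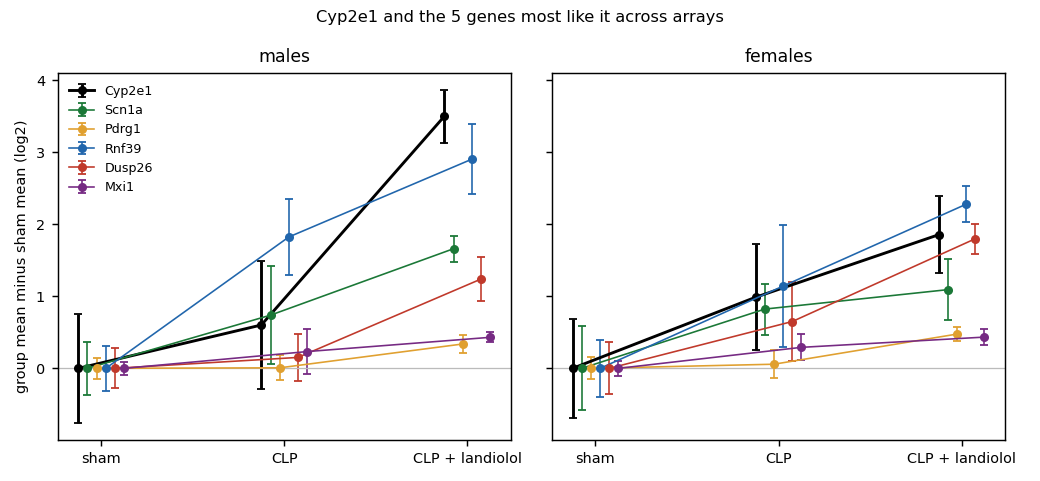
Group mean minus the mean of sham (vertical axis, log2 of quantile-normalised intensity) for Cyp2e1 and the 5 genes most like it, by group, males on the left and females on the right, with bars for the SD of each group. In both sexes and for each of the 6 genes the mean of CLP plus landiolol is the highest and that of sham the lowest. The 5 genes were picked for likeness on these arrays, so the shared order largely follows from the choice.

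Markers of other cells were read beside these results, since CYP2E1 is abundant in liver and fat and CYP4B1 in lung. Cardiomyocyte markers were well above background on all 32 arrays for 8 of 8 genes, and with limma 0 of them passed in any comparison, with 0 to 2 per comparison at an unadjusted p under 0.05. Over all kept probes 0.0945% to 7.81% per comparison passed in either direction, and 9.34% to 28.8% had an unadjusted p under 0.05. Of 12 adipocyte markers 4 were well above background on every array, Adipoq and Plin1 on none, and 0 of the 5 kept passed, with 0 or 1 per comparison at an unadjusted p under 0.05. The sum of a list is the log2 of the summed intensities of its markers, so its brightest markers weigh most and dim ones hardly count. In the adipocyte list Fabp4 was the brightest, with a mean of 13.40 in sham males. The adipocyte sum ranged from 13.82 to 14.24 in sham, 13.76 to 14.39 in CLP and 13.34 to 14.51 in CLP plus landiolol males, and from 13.80 to 14.25, 13.49 to 14.07 and 13.73 to 14.44 in females. Of 12 hepatocyte markers 2 were well above background on every array, Alb on none and Apoa1 on 9 of 32, and Fga was the 1 that passed. In males Fga was well above background on 0 of 5 sham, 4 of 5 CLP and 0 of 6 CLP plus landiolol arrays, so that it was kept only through the CLP group, and it was at least 2.5-fold higher after CLP than in sham, with means of 4.43 and 2.08. Since the group in which Fga is high kept it in the test, nothing is read from its call. In the hepatocyte list Ttr was the brightest, with a mean of 13.11 in sham males. The hepatocyte sum ranged from 13.24 to 13.66, 13.35 to 13.72 and 13.35 to 13.69 in males and from 13.12 to 13.43, 13.33 to 13.78 and 13.14 to 13.75 in females. Of 6 lung epithelium markers Ager was well above background on all 32 arrays, Sftpa1 on 14, Sftpc on 8 and Sftpb on none. Of 6 mesothelial markers Wt1 and Lrrn4 were on all 32, Msln on 2 and Upk3b on none. In both lists 0 were called by limma, with 0 to 2 per comparison at an unadjusted p under 0.05.

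Of 9 macrophage markers, all kept, 3 rose in each comparison with sham, Adgre1 by 2.79 to 3.4, Lyz2 by 1.01 to 1.51 and Cd68 by 0.72 to 1.01, while Csf1r, Cd163, Mrc1, C1qa, C1qb and C1qc did not pass. Over all kept probes 7.81% and 4.15% passed in males and 3.63% and 5.25% in females for CLP and CLP plus landiolol vs sham. In females, marker differences of CLP plus landiolol from sham cannot be told apart from the row of the slide. Of 8 neutrophil markers 2 were kept, S100a8 and S100a9. S100a8 was well above background on 0 of 5 male and 1 of 5 female sham arrays and on every septic array, so that it was kept only through the septic groups. In males it was at least 11.3-fold higher after CLP and at least 23.7-fold higher with CLP plus landiolol than in sham, and in females its means were 3.01 in sham, 7.16 after CLP and 7.26 with CLP plus landiolol. S100a9, well above background on 3 of 5 male and 2 of 5 female sham arrays and likewise kept only through the septic groups, was higher than in sham by 2.5 and 3.72 in males and by 2.96 with CLP plus landiolol in females. Since the groups in which S100a8 and S100a9 are high kept them in the test, these values are a description and nothing is read from their calls. The neutrophil sum ranged from 5.76 to 6.31 in sham, 7.29 to 9.70 in CLP and 8.43 to 9.82 in CLP plus landiolol males, and from 5.72 to 6.39, 7.66 to 8.90 and 7.67 to 10.19 in females. Of 8 fibroblast markers Tcf21 rose and Col1a1, Col1a2, Col3a1 and Lum fell after CLP in males, and Tcf21 rose with CLP plus landiolol in males. Of 8 endothelial markers Emcn fell after CLP in both sexes and Kdr rose with CLP plus landiolol in females. Of 8 mural cell markers Rgs5 fell after CLP in females and Kcnj8 was higher with CLP plus landiolol than with CLP in males, and 0 of 4 atrial markers passed with limma, with 0 or 1 at an unadjusted p under 0.05. The part of these cells in the levels of the 8 genes was not tested.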

How the data were processed

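RNA of 32 left ventricles was hybridised to 1-colour Agilent rat arrays, and the group of each array was taken from its labels. The authors deposited scanner output of Agilent Feature Extraction 10.5, in which the processed intensity of a spot has had background subtracted, and their own table of quantile-normalised log2 values, used here as an alternative. Whether an offset was added before that log2 was taken is not known. Coordinates are those of build rn4, per the file headers.

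From the processed intensity, control spots were not used and spots marked as outliers were dropped (213 probe values on an array were then missing). The rest was turned into log2, averaged per probe and quantile-normalised over the 16 arrays of a sex. A probe was kept if 80% or more of the arrays in any 1 group had it well above background. The 3 groups of a sex were fitted in R 4.3.3 with limma 3.58.1 (lmFit, eBayes), after reading the files with the package data.table (version 1.17.8), with Benjamini-Hochberg adjustment over all kept probes and an FDR of 1% against sham and 5% between septic groups and between the sexes. The study applied SAM, which was run as an alternative with 100 permutations. Nothing in the labels says that replicates shared a litter or a day. Sample titles end in codes that look like dates, whose meaning is not given, and the codes were not used. The number of arrays limits the precision, and the p-values set a difference of means against the spread between these arrays.

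Where a gene has several probes, the one of highest average level stands for it, and where no array of a group was well above background, a bound is given: the mean of the brighter group against the mean of the lowest signal well above background, or of the probe itself where higher, per array. The text names all 8 genes, up to 3 largest rises and falls per list among called genes well above background on every array of a group, and the 5 genes most like Cyp2e1. The lists held further P450 genes, P450 partners and haem enzymes, other oxidation, reduction and hydrolysis, conjugation, drug transporters, transcription regulators, AHR targets, and markers of cell types. The 8 genes and these lists were chosen with earlier results of these data known. Other settings tried were 75th percentile scaling, normexp (offset of 50), the filter over all arrays, no filter, only the groups compared, a trended prior, the slide, the table of the authors, SAM, exchanged FDR levels, both sexes normalised together, other probes and leaving out each array. The row of the slide, and for the septic males the filters, the groups compared and the trend, were added after seeing the data. The test was checked on simulated data with known changes.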

Additional observations from a re-analysis of the deposited data

Results flagged for a closer look

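In each group of each gene the array farthest from the others was compared with the range of its group, and in 5 of 48 groups the gap to the nearest array took a larger share of the range than Dixon's 95% critical value, which chance alone gives in about 1 in 20 groups. Cyp1a1 on replicate 5 of the male sham group was highest at 2.63 against 1.80 for the nearest array (share 0.964), and on replicate 1 of the female CLP group it was highest at 2.22 against 2.09 (share 0.839), both on a probe that never rose well above background. Cyp1b1 was highest on replicate 1 of the male CLP group, at 7.38 against 6.79 (share 0.758), and on replicate 3 of the male CLP plus landiolol group, at 7.81 against 6.95 (share 0.636). Ephx1 on replicate 5 of the female sham group was lowest, at 6.49 against 6.91 (share 0.769). Cyp2e1, Cyp4b1, Aox3, Akr1c3 and Ephx2 had no such array in any group.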

How the results depend on the processing

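No paired analysis was made, since each rat was in 1 group only and the labels link no rats of different groups. Members called for CLP plus landiolol vs sham in males were 2 under every alternative, of which Cyp2e1 was chosen on these arrays, and 0 differed between the sexes for CLP vs sham under each. For CLP vs sham in males 1 member passed, 2 with 75th percentile scaling, SAM or an FDR of 5%, 0 without a filter, and 0 to 2 when leaving out 1 array. In a fit of the 2 groups alone it was again 1, Ephx1 in place of Cyp4b1. In females 1 passed, 0 without a filter, with only the 2 groups or with the row of the slide, 2 with SAM, 4 at an FDR of 5%, and 0 to 2 leaving out 1 array. Of CLP plus landiolol vs sham in females, 2 passed, 0 with the row and 1 or 2 leaving out 1 array. Between septic females 1 passed, 0 with 75th percentile scaling, normexp, the filter over all arrays, no filter, only the 2 groups, the row, the authors' table, an FDR of 1% or both sexes normalised together, and 0 to 1 leaving out 1 array. In males, Cyp2e1 lay between 2.65 and 2.94 above CLP with CLP plus landiolol, and between 2.52 and 3.07 leaving out 1 array.

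Over all kept probes, the row of the slide changed the calls from 923 to 337 for CLP vs sham, from 1332 to 20 for CLP plus landiolol vs sham and from 24 to 1 between septic groups in females. SAM called 2672 in place of 1332, and 73 in place of 24. Exchanged FDR levels gave 4134 and 2538 in males in place of 2021 and 1074, and 2329, 3243 and 0 in females. Fitting only the 2 groups gave 538 for CLP vs sham in females. Between septic females other settings gave 4 with 75th percentile scaling, 9 with the filter over all arrays, 5 without a filter, 2 with only the 2 groups and 11 with both sexes together.

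Directions reversed only for differences that had not passed. With the row of the slide, CLP plus landiolol vs sham in females was -0.40 for Akr1c3, 0.36 for Aox3, -0.0325 for Ephx1 and 0.27 for Ephx2, and Ephx2 differed by 0.27 between septic females. With 75th percentile scaling, Ephx1 was -0.0353 for CLP plus landiolol vs sham in females and Ephx2 -0.0058 for CLP vs sham in males. The difference between the sexes for CLP vs sham turned to 0.0152 with normexp and 0.45 on the second probe for Cyp4b1, and to 0.0323 on another probe for Cyp1b1. Leaving out 1 array gave -0.34 to 0.0482 for Cyp1b1 and -0.20 to 0.16 for Ephx2 between septic females, -0.0721 to 0.12 for Ephx1 for CLP plus landiolol vs sham in females, -0.17 to 0.19 for Ephx2 for CLP vs sham in males, and -0.17 to 0.14 for Cyp4b1 and -0.19 to 0.0634 for Ephx1 for the difference between the sexes. Akr1c3 for CLP plus landiolol vs CLP was 0.43 in males and 0.63 in females with normexp, and 0.51 and 0.40 with the authors' table. The cause was not tested. Probes near background, Akr1c3 above all, and groups of 5 or 6 arrays limit what can be seen.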
